A study of Homo sapiens with 6 samples.

Results

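The deposited peak tables of acetylated NEIL1 chromatin immunoprecipitation held 1531 peaks on chromosomes 1 to 22 whose summit pileup was 50 tags or more, of 149862 peaks in all. The pileup is the number of extended sequencing tags stacked over the highest base of a peak. These members were chosen by that value, table by table. Replicate 1 gave 342 of 39655 autosomal peaks, replicate 2 gave 913 of 59750, and replicate 3 gave 276 of 49482. The 3 immunoprecipitated libraries and their 3 input libraries came from untreated, exponentially growing HCT116 cells, an established human colorectal carcinoma line. The antibody was a custom rabbit antibody against acetylated NEIL1, and the input was chromatin DNA taken before immunoprecipitation. Each immunoprecipitated library was compared with an input of the same line, so all groups share the karyotype of HCT116. Whether separate cultures lay behind the 3 replicates is not in the labels, and their spread may be technical.

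NEIL1 is a DNA glycosylase that starts base excision repair by cutting oxidized bases out of DNA. It can be acetylated on lysines, and the antibody used here was raised against that form. Ribosomal RNA, small nuclear RNA and some transfer RNA genes lie in tandem arrays, in which 1 unit is repeated many times, and centromeres and chromosome ends also hold long repeated stretches. A genome assembly usually carries fewer copies of such arrays than a cell does, so tags from many copies can stack on the few that are drawn. How tags that match several copies were placed is not given in the sources used here. For most of the regions and arrays described, the local background, which reflects the input's level, is given beside the pileup.

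Promoter windows from RefSeq (GRCh38.p14, 250 bases before to 50 bases after a transcript start) show what kind of sequence lay under the peaks. Windows wholly inside a high-pileup peak numbered 21 in replicate 1, 145 in replicate 2 and 11 in replicate 3, and 7 windows of 5 genes were inside one in all 3 tables. A window of 3 of these genes is printed. The median G+C content was 65.7% in replicates 1 and 2 and 62.7% in replicate 3, against 58.7% for all 33725 autosomal windows. A G+C content of 65% or more was found for 52.4%, 60% and 27.3% of them, against 33.4% of all windows, so replicate 3 lay on the other side. The median number of CG dinucleotides was 15, 11 and 8, against 14. Part of the sequence is in capitals: each CG dinucleotide in the ORM1 and AATK windows, and each copy of the 7-base unit GCTGTGG in the LOC105372861 window.
ORM1, chr9:114322848-114323147, plus strand: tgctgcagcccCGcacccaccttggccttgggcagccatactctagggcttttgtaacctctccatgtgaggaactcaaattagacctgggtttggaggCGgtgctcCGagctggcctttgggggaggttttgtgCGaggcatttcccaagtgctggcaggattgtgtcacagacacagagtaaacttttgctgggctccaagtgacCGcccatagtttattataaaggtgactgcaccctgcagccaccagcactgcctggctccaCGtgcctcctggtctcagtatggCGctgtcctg
AATK, chr17:81131905-81132204, minus strand: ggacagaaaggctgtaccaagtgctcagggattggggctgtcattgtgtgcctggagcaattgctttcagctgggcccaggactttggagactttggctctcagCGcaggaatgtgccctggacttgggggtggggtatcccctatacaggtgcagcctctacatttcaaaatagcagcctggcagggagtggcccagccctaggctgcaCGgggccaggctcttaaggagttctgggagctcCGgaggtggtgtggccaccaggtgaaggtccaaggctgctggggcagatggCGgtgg
LOC105372861, chr22:19727471-19727770, plus strand: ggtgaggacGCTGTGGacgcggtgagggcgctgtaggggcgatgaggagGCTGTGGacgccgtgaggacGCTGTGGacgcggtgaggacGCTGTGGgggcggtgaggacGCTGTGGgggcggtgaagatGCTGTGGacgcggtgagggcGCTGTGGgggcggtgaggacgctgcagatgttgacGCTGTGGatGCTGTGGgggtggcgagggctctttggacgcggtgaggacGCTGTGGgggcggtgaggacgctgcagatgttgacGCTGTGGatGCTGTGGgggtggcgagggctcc

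The window of ORM1, which encodes an acute-phase plasma protein, holds 7 CG dinucleotides, and that of AATK, a kinase gene, holds 4. The window of LOC105372861, a long non-coding RNA gene beside GP1BB, is itself a short tandem repeat with 12 copies of GCTGTGG. The unit was chosen after that sequence was seen. On either strand, 9.44% of all windows held at least 1 copy of it and 3 windows held 5 or more. A match is a description of the letters and names no bound protein.

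The peaks at AATK also covered 4 microRNA genes, MIR338, MIR3065, MIR657 and MIR1250. A single peak covered all 4 in replicates 1 and 2, and in replicate 3 MIR1250 lay under a separate, lower member. These were the only 4 of 1793 autosomal microRNA genes under a high-pileup peak in all 3 tables. Their mature sequences show the seed, bases 2 to 8, in capitals. MIR338 and MIR3065 are read from opposite strands of the same bases, so miR-338-3p and miR-3065-5p are complementary over the bases they share. None of the 4 seeds printed was shared.
miR-338-3p, chr17:81125887-81125908, minus strand: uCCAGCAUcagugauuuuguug
miR-3065-5p, chr17:81125886-81125908, plus strand: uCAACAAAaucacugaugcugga
miR-657, chr17:81125291-81125313, minus strand: gGCAGGUUcucacccucucuagg
miR-1250-5p, chr17:81133265-81133285, minus strand: aCGGUGCUggauguggccuuu

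The number of members was 510.3 ± 350.3 (SD, n = 3), and it was set largely by replicate 2. They made up 0.862% of the autosomal peaks of replicate 1, 1.53% of replicate 2 and 0.558% of replicate 3. Without replicate 2 the mean was 309. The tags left after the caller's duplicate filter were 31921768, 28814429 and 35222701 in the 3 immunoprecipitated libraries and 32877739, 37772127 and 33606858 in their inputs. Replicate 2 therefore had the fewest immunoprecipitated tags and the most members. The larger library of each pair was scaled to the smaller, which in replicate 3 shrank the immunoprecipitated pileup, so that 50 there stood for 52.4 tags before scaling. At 50 tags before scaling replicate 3 had 336 members.

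Most members lay not far above the threshold. The median pileup was 68 in replicate 1, 61 in replicate 2 and 68.7 in replicate 3, against 20, 21 and 19.1 for all autosomal peaks. A pileup under 60 was found for 37.1%, 46.1% and 32.2% of members, and 86, 138 and 77 members reached 100. In replicate 1, 23 peaks stood at 50 and 21 just outside at 49; in replicate 2 these numbers were 62 and 67. In replicate 3, 14 peaks stood at 50.6 and 14 at 49.6. Of the 3 peaks listed on each side of the threshold, fold enrichment ran from 1.87 to 4.76 inside and from 3.43 to 4.70 outside in replicate 1. It ran from 3.29 to 8.47 inside and from 2.81 to 4.28 outside in replicate 2, and from 2.06 to 6.45 inside and from 2.81 to 5.06 outside in replicate 3. The ranges on both sides overlapped in every table.

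A high pileup can arise from a high fold over the input or from a high local background, and the deposited values separate the 2. The local background is the larger of the input's level around the summit and the genome average, and it was recovered from the authors' pileup and fold. Its median over members was 21.8, 12.97 and 21.7 tags in replicates 1, 2 and 3, against 4.94, 5.34 and 4.48 tags for all autosomal peaks. The median fold over members was 3.29, 4.61 and 3.31, against 3.42, 3.39 and 3.61. In replicates 1 and 3 the typical member thus had about the fold of any other peak over a background several times higher. These values come from the contrast that chose the members and were not tested.

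A background of 10 tags or more was found for 298 of 342 members in replicate 1, 608 of 913 in replicate 2 and 248 of 276 in replicate 3, which is 87.1%, 66.6% and 89.9%. Among all autosomal peaks it was found for 3.93%, 4.43% and 2.13%. A fold of 5 or more was found for 55, 389 and 47 members, or 16.1%, 42.6% and 17.03%, beside 3.38%, 5.10% and 5.13% of all peaks. Both marks were met by 18, 103 and 20 members, and neither by 7, 19 and 1. At 43, 63 and 36 members the fold was under 2. The recovered background, undone for scaling, was a whole number of tags within 0.02 at 82.2%, 69.6% and 79.7% of members, against 34.8%, 38.7% and 36.1% of all peaks. A whole number is what the input's own pileup at the summit gives, where an average over a wider window gives a fraction.

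**Figure D1:**
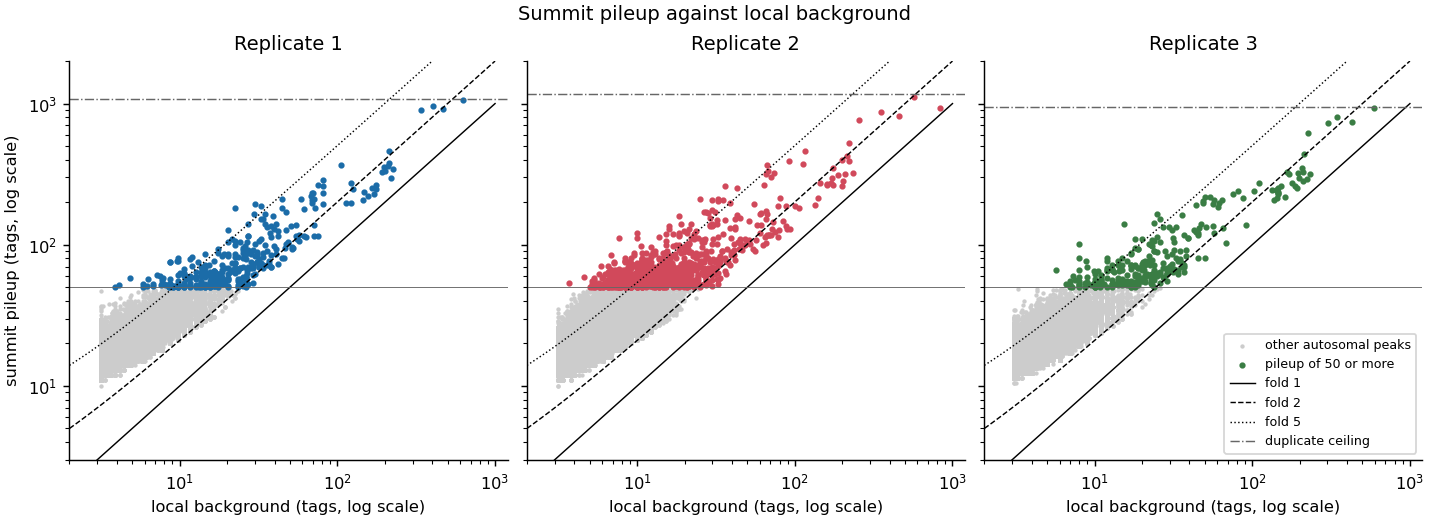
Summit pileup (tags, log scale) against recovered local background (tags, log scale) for every autosomal peak, 1 panel per replicate; coloured points are peaks of 50 tags or more, grey points all others, slanted lines mark folds of 1, 2 and 5, and the dash-dotted line is the highest pileup the duplicate filter allows. Most coloured points lie to the right of 10 tags of background, and replicate 2 has the most coloured points left of it (305 of 913).

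The highest summit of each table was in the spacer of the 45S ribosomal DNA on chromosome 21, and the ribosomal RNA genes themselves held no peak. Each 45S unit holds a gene for the precursor of the 18S, 5.8S and 28S ribosomal RNAs and a long spacer. The assembly has 3 such genes placed on chromosome 21, RNA45SN2 at chr21:8205988-8219302, RNA45SN3 at chr21:8389035-8402343 and RNA45SN1 at chr21:8433222-8446572. No peak of any table, high or low, overlapped any of the 3. The window around them held 18, 19 and 27 peaks in replicates 1, 2 and 3, and every one was a member. Beyond the high-coordinate end of each gene the first member began 4.39 to 5.71 kb away, across the 3 genes and 3 tables.

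The highest region of all 3 tables was chr21:8224888-8237501 in the spacer beyond RNA45SN2. Its summit pileup was 1056 in replicate 1, 1110 in replicate 2 and 930.3 in replicate 3. The fold there was 1.68, 1.95 and 1.58, and the background was 627, 569 and 590 tags. With 2 tags kept per position and strand, no pileup could exceed 1072, 1176 and 950.3 at these fragment lengths and scales. The 3 summits reached 98.5%, 94.4% and 97.9% of that limit, so the filter bounds both their height and their fold. The corresponding region beyond RNA45SN1, chr21:8450964-8466789, read 965, 872 and 798.6, with folds of 2.38, 2.48 and 2.30. Beyond RNA45SN3 the region chr21:8412587-8421974, which overlaps the pseudogene CDC27P10, read 921, 816 and 736.6, and its neighbour chr21:8406751-8412305 read 901, 768 and 724.2. Replicate 1 was higher than replicate 2 in these 3, in contrast to most other shared regions. Across the whole window the median fold of members was 1.64, 1.66 and 1.59, and the lowest background was 146, 133 and 133 tags.

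In the 5S ribosomal RNA array the peaks ran over genes and spacers alike. The array lies at chr1:228610266-228646158 and holds 17 RNA5S genes of 121 bp, 2241 bp apart. High-pileup peaks overlapped 16, 17 and 16 of the 17 genes in the 3 replicates. The array held 15, 4 and 13 members, which covered 34.2, 37.8 and 35.0 kb, or 89.4%, 98.7% and 91.4% of the stretch they spanned. At that coverage most genes are overlapped wherever the summits lie, and no summit of any table lay within a gene copy. In replicate 2 the 4 members were long (median 11430 bp) where the other tables had short ones (2095 and 2342 bp). Pileups ran from 122 to 288 in replicate 1, from 267 to 333 in replicate 2 and from 113 to 230 in replicate 3. The ranges of replicates 1 and 3 overlapped, and replicate 2 lay above all of replicate 3 and overlapped the top of replicate 1. The median fold was 3.30, 4.55 and 3.96 over a median background of 68.9, 66.7 and 49.0 tags.

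The U2 small nuclear RNA array on chromosome 17, whose product is part of the spliceosome, resembled the 45S units in that its genes were left uncovered. None of its 13 annotated copies (chr17:43233790-43300231, 191 bp each) overlapped a peak in any table. Members in the array numbered 11, 18 and 9, and the gap from a copy to the nearest member had a median of 1502, 1296 and 2155 bp. Their pileups ran from 50 to 134 in replicate 1, 50 to 168 in replicate 2 and 51.5 to 131 in replicate 3, with a median fold of 3.43, 2.99 and 2.80 over a median background of 16.9, 19.5 and 22.9 tags. These members covered 11.7%, 23.5% and 12.6% of the stretch they spanned, far less than in the 5S array.

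**Figure D2:**
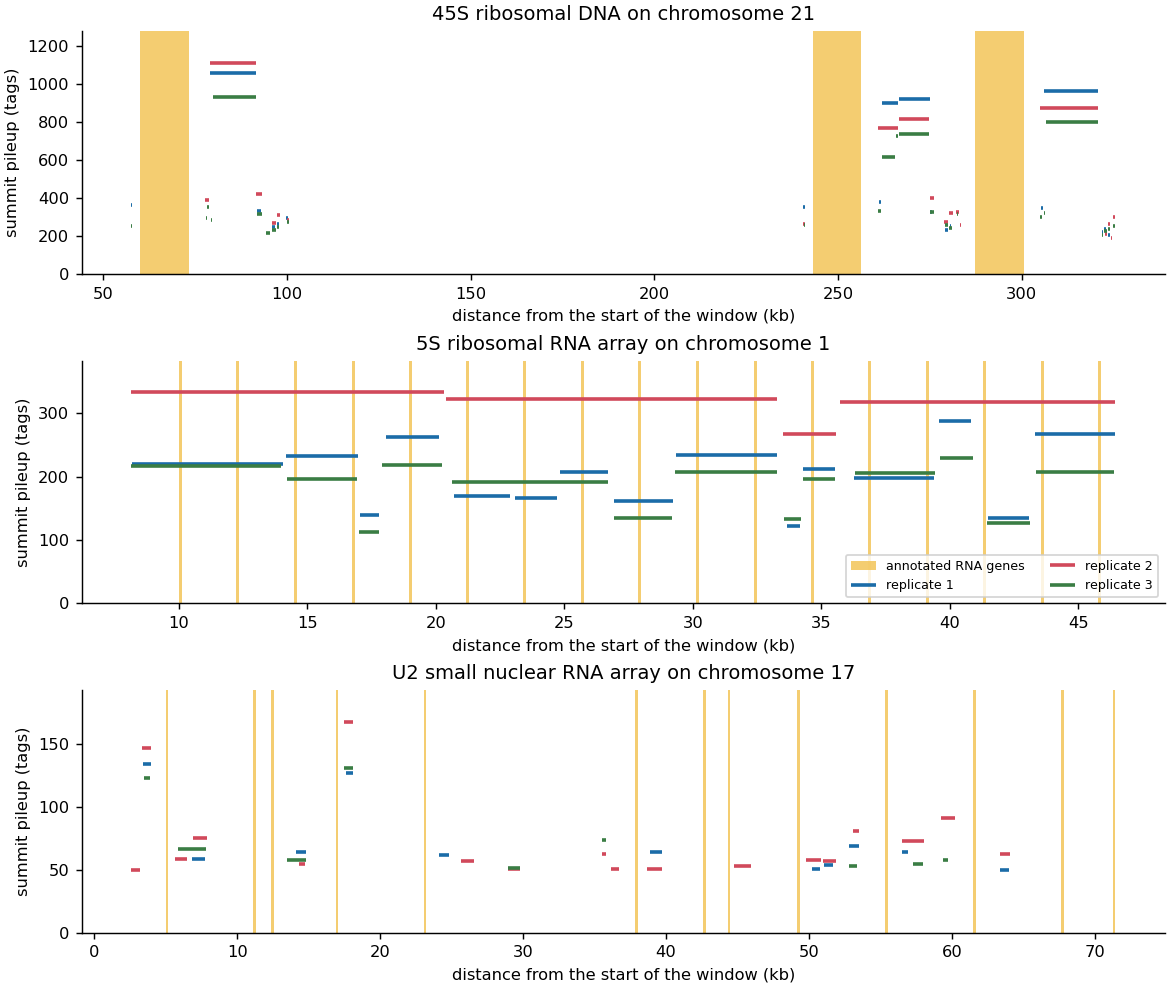
Summit pileup (tags, vertical axis from 0) of high-pileup peaks drawn as horizontal bars from peak start to end against distance (kb) from the start of each window, in 3 arrays; colours are replicates and yellow bands the annotated RNA genes. Bars lie beside the 3 precursor genes of the 45S window, across nearly all 17 genes of the 5S array, and between the 13 copies of the U2 array.

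Other multicopy families showed less even coverage among the replicates. A gene of 12 multicopy families (the 45S, 5S, small nuclear, transfer RNA, NBPF, POTE, FRG1, GOLGA, USP17L, DUX, TAF11L and DEFB genes) was overlapped by 16, 36 and 11 members, or 4.7%, 3.9% and 4.0%, against 0.174%, 0.218% and 0.148% of all autosomal peaks. The 5S array described above gave 11, 4 and 9 of these members, and the DUX genes 3, 23 and 1, so few came from the other families. A window reaching 10 kb beyond the DUX4L copies of the D4Z4 repeat at the end of chromosome 4 held 6, 14 and 3 members. Their highest pileups were 94, 152 and 112 and their median backgrounds 19.9, 25.6 and 18 tags. Not all of them overlapped a copy, and 2, 7 and 1 of the 8 copies were overlapped. A window reaching 20 kb beyond the homologous copies at the end of chromosome 10 held 3, 23 and 1 members. Their highest pileups were 55, 78 and 54.4 and their median backgrounds 26.2, 20.9 and 16.0 tags. The 2 arrays are near-identical, so tags may have been split between them. The REXO1L array on chromosome 8 held 0, 20 and 1 members. In replicate 2 its pileups ran from 75 to 181 at a median fold of 1.71 over a median background of 67.8 tags. A transfer RNA array on chromosome 1 held 4, 11 and 4 members at median folds of 1.93, 2.06 and 1.90 over 46.1, 32.0 and 33.0 tags. These members overlapped 0, 3 and 0 of its 26 annotated genes. The single FRG1 match, in the non-coding FRG1-DT at chr4:189846005-189847261, was in all 3 tables at 187, 261 and 161 over 33.0, 35.9 and 36.0 tags. No member of any table overlapped a gene of the NBPF, POTE, TAF11L, DEFB, RNU, olfactory receptor, protocadherin, keratin-associated protein or HOX families. Peaks of any height numbered 101, 44 and 60 in the protocadherin genes, 55, 72 and 70 in the HOX genes and fewer in the others. POTE and TAF11L had none. Members made up 0.862%, 1.53% and 0.558% of all autosomal peaks, so a lack of members among so few peaks says little about these families.

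Members near centromeres were a minority of each list, and most of them lay on chromosomes 2 and 21 in replicates 1 and 3. The centromere was stood in for by the longest gene-free stretch of each chromosome, or by the stretch before the first gene on chromosomes 13 and 15. Within 5 Mb of it lay 53, 90 and 62 members, or 15.5%, 9.86% and 22.5%, against 4.81%, 5.07% and 4.67% of all autosomal peaks. The 45S window lies within that distance, and without its members the shares were 10.8%, 7.94% and 14.1%. Within 2 Mb lay 19, 48 and 18 members, and the share of all autosomal peaks at 2 Mb was not computed. Of the members within 5 Mb, chromosome 2 held 20, 19 and 21 and chromosome 21 held 19, 20 and 28. All other autosomes together held 14, 51 and 13. The numbers on chromosome 2 were nearly the same in the 3 tables, while those on the other autosomes were mostly of replicate 2. Median folds near the centromere were 2.38, 4.05 and 2.39 over median backgrounds of 32.0, 22.1 and 35.0 tags.

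Inside the stand-in itself lay 3, 27 and 1 members. The second highest peak of replicate 2, chr3:93470348-93470812, was one of them, with a pileup of 927, a fold of 1.11 and a background of 835 tags, which is 93.0% of the most its input could reach. Neither of the other tables had a peak there. Replicate 2 also had 8 members in the stand-in of chromosome 5, 6 in that of chromosome 9 and 5 in that of chromosome 12. The highest fold inside the stand-ins was that of chr12:37248840-37249306 in replicate 2, with a pileup of 54, a fold of 11.7 and a background of 3.70 tags.

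Chromosome ends held most members in each table. Within 5 Mb of the outermost gene or peak lay 204, 564 and 168 members, or 59.6%, 61.8% and 60.9%, against 25.4%, 25.7% and 25.0% of all autosomal peaks. The 45S window counts among these because little of the short arm of chromosome 21 is drawn, and without it the shares were 57.4%, 61.0% and 56.6%. The low-coordinate end of chromosome 1 held 21, 41 and 20 members. The high-coordinate end of chromosome 8 held 26, 63 and 17, that of chromosome 16 held 16, 65 and 12, and that of chromosome 17 held 19, 64 and 15. No member of any table lay at the low-coordinate end of chromosomes 3, 6, 8, 9, 12, 13, 14, 18 or 22.

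Segments known to be gained in HCT116 were taken coarsely as 8q from PRDM14, 10q from ENTPD1 and 17q from THRA to the end. They held 74, 252 and 46 members, or 21.6%, 27.6% and 16.7%, against 11.8%, 10.5% and 11.8% of all autosomal peaks. By chromosome the members numbered 26, 84 and 18 on chromosome 8, 6, 34 and 1 on chromosome 10, and 42, 134 and 27 on chromosome 17. As shares of the peaks in each segment, these were 2.61%, 6.62% and 1.48% on chromosome 8 and 1.60%, 3.92% and 0.816% on chromosome 17. Over all autosomal peaks the share of members was 0.862%, 1.53% and 0.558%. In the segment of chromosome 10 it was 0.572%, 2.16% and 0.0752%, below that of all peaks in replicates 1 and 3. Among all peaks the median background was 6.80, 7.47 and 6 tags in the gained segments and 4.85, 5.34 and 4.23 elsewhere, so the input was higher there too. The segments run to the chromosome ends, so many of their members are also counted as chromosome-end members. These were 26, 63 and 17 on chromosome 8, 3, 23 and 1 on chromosome 10, and 19, 64 and 15 on chromosome 17. The segments also hold the U2 and REXO1L arrays and the DUX4L copies of chromosome 10. The part of the ends and arrays in the share was not tested. The share of members in gained segments turned with the threshold in 2 of the 3 tables. At a pileup of 75 or more it was 9.35%, 24.7% and 7.89%, below the share of all peaks in replicates 1 and 3.

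**Figure D3:**
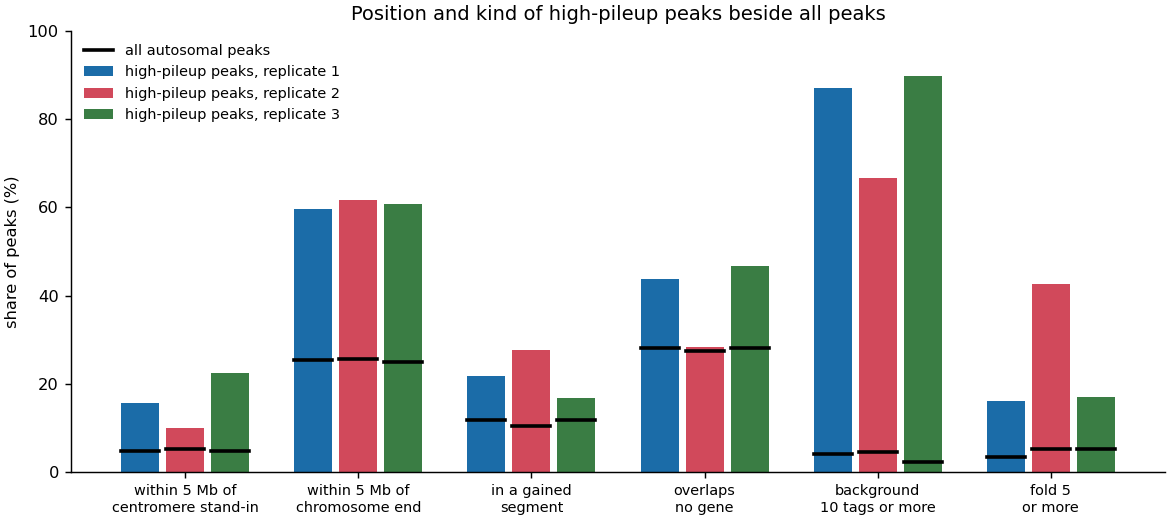
Share of high-pileup peaks (%, bars, 1 per replicate) by position and kind, with the share of all autosomal peaks of the same table as a black line. The bars for chromosome ends stand at 59.6%, 61.8% and 60.9% over lines near 25%, and replicate 2 differs most from the others in the shares with a background of 10 tags or more and with a fold of 5 or more.

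Many members lay in no gene. No annotated gene was overlapped by 150 of 342, 259 of 913 and 129 of 276 members, or 43.9%, 28.4% and 46.7%, against 28.0%, 27.5% and 28.2% of all autosomal peaks. A protein-coding gene was overlapped by 39.5%, 52.2% and 36.6% of members, against 59.5%, 60.6% and 59.8%. The members touched 102, 361 and 71 of 18969 coding genes, 54 of them in all 3 tables. Members with a background under 10 tags touched a coding gene in 52.3%, 67.9% and 53.6% of cases, and those with a higher one in 37.6%, 44.4% and 34.7%.

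Among the highest regions outside the ribosomal DNA, ART1 and BTNL9 were in coding genes. ART1 encodes an enzyme that attaches ADP-ribose to proteins; its region at chr11:3653803-3654771 read 465, 529 and 442, with folds of 2.17, 2.40 and 2.08 over 214, 220 and 212 tags. The background varied little among the replicates there (215 ± 4.06 tags, SD, n = 3). BTNL9, a butyrophilin-like gene, read 367, 395 and 272 at chr5:181045816-181046364, with folds of 3.48, 4.28 and 2.44 over 105, 91.5 and 111 tags. Only regions that were members in all 3 tables were ranked here by mean pileup. Of the highest 10, 6 were in the ribosomal spacer, and the 2 besides ART1 and BTNL9 lay in no gene. At chr1:144102006-144105119 pileups were 276, 464 and 242 over 121, 116 and 81.0 tags, and at chr16:1025108-1025688, 38.1 kb from SOX8, they were 247, 375 and 239 over 126, 112 and 103 tags.

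By fold, 6 of the 10 leading regions were over coding genes, and the background was under 10 tags at each of the 10 in the tables where they were members. At GP1BB, which encodes a chain of the platelet receptor for von Willebrand factor, the region chr22:19723580-19730053 covers the LOC105372861 repeat printed above. It had a pileup of 75, 112 and 66.8, a fold of 7.80, 13.1 and 10.1 (10.3 ± 2.65, SD, n = 3) and a background of 8.74, 7.63 and 5.73 tags. It was the 1 of the 10 regions with the highest mean fold that was a member in all 3 tables. The other 9 were members in a single table, most with a lower peak in at least 1 other. The mucin gene MUC1 with its neighbour TRIM46 reached a fold of 10.8 in replicate 2 at a pileup of 84, and the same stretch had lower peaks of 39 and 46.8 in replicates 1 and 3. A stretch of MUC4 reached a fold of 10.4 in replicate 2 at a pileup of 71. The same stretch had lower peaks of 44 and 42.0 in replicates 1 and 3. Members elsewhere in MUC1 and MUC4 brought both genes under a high-pileup peak in all 3 tables. Of the remaining regions, those near FGF21 and in TSPEAR were of replicate 2 and those in MYH16 and VMP1 of replicate 1. The other 3 lay in no gene.

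The 10 regions of highest mean fold among those that were members in all 3 tables were listed after their values were seen, and 5 of them are given here beside GP1BB. FLT4, the receptor for lymphatic vessel growth factors, had a pileup of 57, 112 and 80.2 and a fold of 4.26, 10.4 and 9.02, so it passed a fold of 5 in replicates 2 and 3 but not in replicate 1. AATK had a pileup of 82, 135 and 76.3 and a fold of 6.40, 7.99 and 7.86; in replicate 3 a second member beside it held the promoter window at 54.4. SLC16A3, which exports lactate, had a pileup of 57, 76 and 51.5 and a fold of 5.96, 8.20 and 5.84. SCNN1D, a sodium channel subunit, had a fold of 7.28, 7.74 and 5.73, and ZBTB45, a zinc-finger gene, 5.14, 11.3 and 5.13. The background at these 5 ran from 8 to 17.5 tags. Replicate 2 had the highest pileup in 9 of the 10; the exception was chr7:155328354-155329150 in the non-coding LOC105375592, with a pileup of 182, 169 and 139 and a fold of 7.84, 5.82 and 8.54.

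Mucin genes, which encode the glycoproteins of mucus and carry long internal repeats, were touched by 6, 17 and 7 members. That is 1.75%, 1.86% and 2.54% of members, against 0.280%, 0.181% and 0.271% of all autosomal peaks, over 18 genes. MUC3A was the highest, at 166, 205 and 152 with folds of 5.45, 6.15 and 5.66 over 29.7, 32.5 and 26 tags. MUC2, the main secreted mucin of the colon, had 3, 4 and 1 members with highest pileups of 65, 86 and 58.2 over 16.5, 25.9 and 20.0 tags. MUC1 had members in all 3 tables with highest pileups of 82, 122 and 65.8, and MUC4 with 57, 71 and 56.3. MUC12 had 0, 4 and 2 members, with highest pileups of 76 and 62.0 and folds of 2.36 and 2.33 in replicates 2 and 3. MUC5AC, MUC5B and MUC6 each had 1 member in replicate 2 and none in the others. MUC7, MUC8, MUC13, MUC15, MUC16, MUC17, MUC19, MUC20, MUC21 and MUC22 had none in any table.

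Width followed the kind of member. The median width was 726 bp in replicate 1, 2994 bp in replicate 2 and 712.5 bp in replicate 3, against 401, 479 and 384 bp for all autosomal peaks. Members with a background of 10 tags or more had medians of 621, 1402 and 638.5 bp, and those with a lower background 2495, 4613 and 3470 bp. A width of 5000 bp or more was found for 14, 253 and 18 members, and the widest were 15418, 21251 and 14242 bp. Width depends on the signal that chose the members and was not tested.

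**Figure D4:**
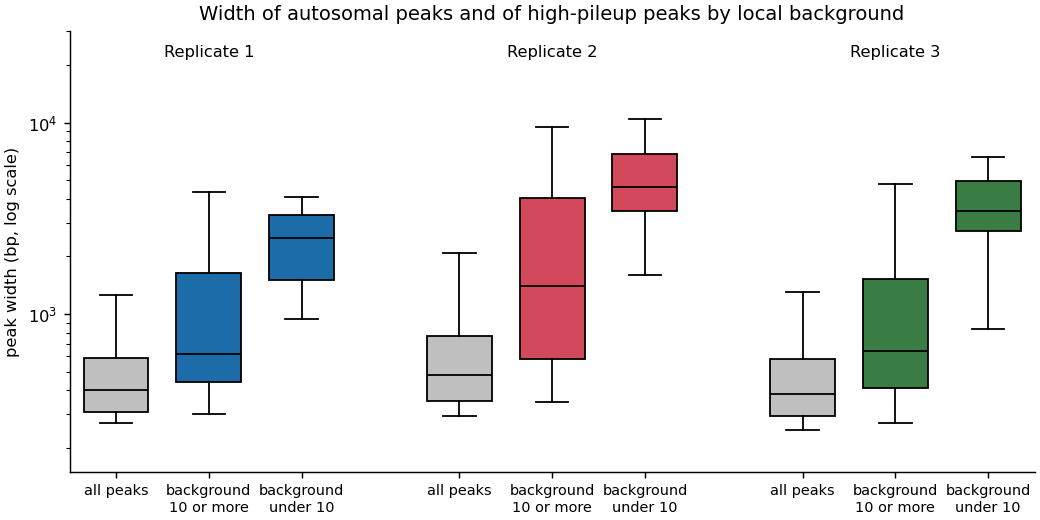
Peak width (bp, log scale) of all autosomal peaks and of high-pileup peaks by local background, for each replicate; boxes span the quartiles with the median as a line and whiskers reach the 5th and 95th percentiles. In each replicate the box for a background under 10 tags lies highest, with medians of 2495, 4613 and 3470 bp.

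Many members had another member nearby. Another member of the same table was within 10 kb of 143, 469 and 131 of them, or 41.8%, 51.4% and 47.5%. The share for as many peaks drawn from the whole table was not computed, so this measure stands without a background. Arrays with several members count in it, and the 5S array alone held 15, 4 and 13. Any other peak of the table was within 10 kb of 88.9%, 95.5% and 90.6% of members, against 86.3%, 90.7% and 89.5% of all autosomal peaks, so closeness to peaks of any height was near the background. Joined across tables at 100 kb, the members formed 371 loci, of which 161 held a single member. The 40 loci with 10 or more members held 763 of the 1531 members (49.8%), and 37 of the 40 had members in all 3 tables. In 32 of the 40 replicate 2 had more members than either of the others. The TTC34 locus on chromosome 1 held 13, 9 and 14, with highest pileups of 212, 365 and 215. Around ADGRB1 and PSCA on chromosome 8 the numbers were 9, 21 and 5, and around PIEZO1 on chromosome 16 they were 3, 21 and 2. The stretch chr2:87352102-87431556 held 9 in each table, with highest pileups of 115, 254 and 127.

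Most members recurred as a peak of some height in the other tables. A peak of any height in replicate 2 was overlapped by 94.4% of replicate 1 members (background 60.6%), and a peak of replicate 3 by 88.9% of them (background 50.0%). For replicate 2 members the shares were 80.9% with replicate 1 (background 32.2%) and 83.7% with replicate 3 (background 39.8%). For replicate 3 members they were 87.3% with replicate 1 (background 39.8%) and 96.7% with replicate 2 (background 60.1%). Members are wider than other peaks, which makes an overlap easier, and the part of width was not tested. With an overlap of at least 50% of both peaks required, 35.1%, 23.7% and 35.1% of members met a peak in both other tables, instead of 87.4%, 77.8% and 85.9%. No peak in either other table was met by 14, 120 and 5 members, or 4.09%, 13.1% and 1.81%. For these measures over both other tables the share of all autosomal peaks was not computed, so they stand without a background.

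Merged by overlap, the members formed 948 regions, of which 166 were members in all 3 tables, 136 in 2 and 646 in 1. Of the 646, 608 were of replicate 2, 32 of replicate 1 and 6 of replicate 3. Without replicate 2, 204 regions were shared by the other 2 tables. The 166 shared regions had median pileups of 78, 104 and 70.6, and replicate 2 was the highest in 136 of them. Their background was 10 tags or more in all 3 tables in 136 and their fold 5 or more in all 3 in 15. They lay within 5 Mb of a chromosome end in 110 of the 166 cases, in gained segments in 32 and near a centromere in 28. Among all members of the 3 tables, 59.6%, 61.8% and 60.9% were at chromosome ends. In gained segments the shares were 21.6%, 27.6% and 16.7%, and near a centromere 15.5%, 9.86% and 22.5%. The median coefficient of variation over the 3 tables was 19.1% for pileup, 20.6% for fold, 17.4% for background and 36.1% for width. Across these 166 regions Pearson's r of log2 pileup was 0.92 between replicates 1 and 2, 0.97 between 1 and 3 and 0.94 between 2 and 3. For log2 fold it was 0.68, 0.64 and 0.79. The 166 regions were chosen for a high pileup in each table, and fold is computed from pileup. These r values therefore cannot show how well the replicates agree over peaks in general. The regions also share libraries and neighbours and are not independent, so the values are descriptions of the chosen regions only.

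Replicate 2's own regions were mostly weaker peaks elsewhere. Of the 608, 445 had a lower peak in both other tables, 43 in 1 and 120 in none. Their median pileup was 57 in replicate 2, at a median fold of 4.91, a background of 10.7 tags and a width of 3413 bp. Where the other tables had a peak it had a median of 38.5 in replicate 1 (458 regions) and 38.2 in replicate 3 (475 regions). The 120 with no peak elsewhere include the chr3 peak of 927 tags.

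**Figure D5:**
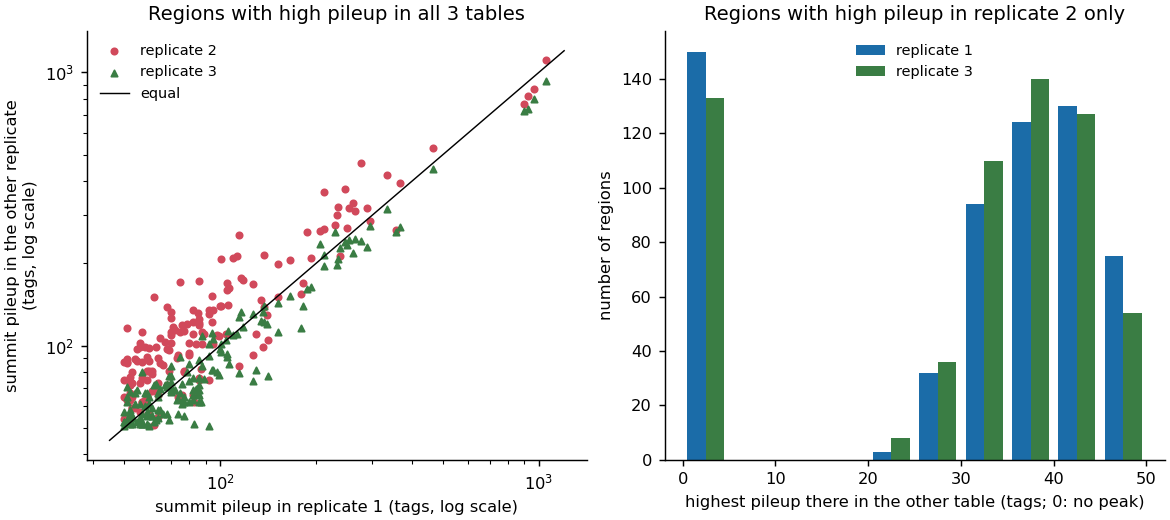
Left, summit pileup in replicate 2 (circles) and replicate 3 (triangles) against replicate 1 (tags, log scales) for the 166 regions that were high in all 3 tables, with the line of equality. Right, the highest pileup of replicates 1 and 3 (tags, 0 where no peak was called) in the 608 regions that were high in replicate 2 only; circles lie above the line in most regions and the called peaks at right have medians of 38.5 and 38.2 tags.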

How the data were processed

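Chromatin immunoprecipitation for acetylated NEIL1 and input DNA were sequenced from HCT116 cells, 3 libraries each. Per the file headers, the authors called peaks on each immunoprecipitated library against its input with MACS 2.1.1.20160309 on hg38 (q cutoff 0.05, at most 2 tags per position). The deposited pileup is a signal in scaled tags, the deposited fold is a ratio of pileup plus 1 to local background plus 1, and the authors gave p and q values as −log10. Trim Galore and Bowtie2 are named in the submitters' processing notes without settings. The local background was computed here as (pileup + 1)/fold − 1. Overlap meant at least 1 shared base. Genes and promoters were from RefSeq (GRCh38.p14, 56076 autosomal genes). Work was done in Python 3.11.15 with pandas 2.3.3, and interval steps were tested on simulated data.

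Members and lists were chosen with earlier results of these data known. Regions named were the 10 with members in most tables and the highest mean pileup, the 10 of highest mean fold, the 5 highest members per table, and 3 peaks on each side of the threshold; mucins, arrays, coding genes in all 3 tables and loci of 10 or more members were added after their values were seen. No test was run, because every measure comes from the contrast that chose the members. Pileup minimums of 40, 75 and 100, other distances and overlaps, and leaving out each replicate were tried. Satellite and repeat annotation and copy number were not analysed here, nor were high-pileup peaks on X, Y and scaffolds (21, 32 and 22). One promoter window found inside members is not reported here.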

Additional observations from a re-analysis of the deposited data

How the results depend on the processing

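Values here are means over the 3 tables unless said otherwise. No paired analysis was possible because each table is already an immunoprecipitated library against its input and the inputs have no table of their own. Of 80 alternatives, 51 left a value within 1 SD over the replicates (shares and medians) or within 1.5 times (counts of members and shared regions), and 29 moved it further; the cause was not tested. At pileup minimums of 40, 75 and 100 the number of members was 1243, 168 and 100.3 (510.3 at 50), and the share near a centromere 9.23%, 27.5% and 32.2% (15.9%). The share in gained segments was 28.5%, 13.98% and 12.2% (21.97%), the background 11.5, 36.5 and 55.3 tags (18.8), and the multicopy share 2.33%, 8.06% and 11.1% (4.20%). Regions shared by all 3 tables numbered 378, 69 and 43 (166). The clustered share was 57.6% at 40, and the share overlapping a peak in both of the others at 100 was 78.3% (83.7%). With equal lists of 276 per table the background was 24.8 tags. The centromere share was 5.78% within 2 Mb, the clustered share 31.0% within 1 kb and 68.3% within 100 kb (46.9% within 10 kb), and the overlapping share 31.3% with 50% reciprocal overlap and 74.4% with other peaks of −log10 q of 5 or more. Leaving out 1 replicate gave 309 to 627.5 members and 204 to 250 shared regions. Equal lists, the count before scaling and the multicopy share at other minimums were added after the data were seen. Median width moved by less than its spread in every alternative run, but that spread was wide (1478 ± 1313 bp, SD, n = 3). It therefore cannot show that width was stable. At minimums of 75 and 100 the mean was 822 and 808 bp, and replicate 2 fell from 2994 to 1121 and 998 bp. Summits near the duplicate limit cannot show how far they exceed it.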
